A study of Mus musculus with 2 samples.

Results

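Non-cycling insulin-positive beta cells were described in pancreata of mouse embryos at E15.5, profiled cell by cell with the BD Rhapsody system, which counts unique molecular identifiers (UMIs). 1 library came from Mettl3pKO embryos, in which Mettl3 was deleted in Pdx1+ progenitors of the pancreas, and 1 library from wild-type (WT) embryos. The sources used here give neither the number of embryos behind a library nor the deleted exons. Each genotype had 1 library, so no difference between genotypes below has a replicate check, no test was made, and every interval is a 95% interval that covers counting error only. Cells were kept when Ins1 and Ins2 together reached 200 UMIs per 10000 UMIs of the cell. They also had to hold less than 200 per 10000 of Gcg, 50 of Sst, 100 of Ctrb1 and 20 of Col1a1 plus Col3a1, fewer than 3 Neurog3 UMIs, and less than 2 per 10000 summed over 9 proliferation genes (Aurkb, Cenpf, Tpx2, Birc5, Ube2c and Ccnb1, with Cdk1, Top2a and Mki67). These limits kept 117 of 3624 Mettl3pKO cells and 338 of 6384 WT cells, or 455 of 10008 cells in all.

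Beta cells make, process and store insulin and release it when glucose enters through the transporter Slc2a2 and is metabolised. In the embryo they descend from Pdx1+ progenitors through a short Neurog3+ stage and then raise their insulin output, with Mafa as a main activator of the insulin genes. The mouse has a pair of insulin genes, Ins1 and Ins2. Mettl3 is the catalytic subunit of the complex that writes N6-methyladenosine (m6A) on RNA. Homeodomain factors such as Pdx1 and Nkx6-1 bind DNA with a TAAT core, and basic helix-loop-helix factors such as Neurod1 bind E-boxes.

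The promoters below belong to an insulin gene and to the markers Iapp, G6pc2 and Npy, whose levels stood higher in cells with more insulin. Each holds 250 bases before and 50 bases after the annotated start, from RefSeq on GRCm38.p6. All are given 5′ to 3′ on the plus strand, which is the strand of the genes. Capitals mark TAAT or its complement ATTA, and the E-box letters CANNTG, which read alike on both strands. Overlapping matches were counted. G6pc2 has a pair of annotated starts, of which the files do not say which one was used.
Ins1 promoter, chr19:52264047-52264346: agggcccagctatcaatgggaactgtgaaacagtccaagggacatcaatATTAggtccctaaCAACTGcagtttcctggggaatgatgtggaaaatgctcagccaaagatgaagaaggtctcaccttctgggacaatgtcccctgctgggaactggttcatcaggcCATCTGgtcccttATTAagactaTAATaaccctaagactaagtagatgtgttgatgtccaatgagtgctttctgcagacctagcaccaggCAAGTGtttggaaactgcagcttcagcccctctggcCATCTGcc
Iapp promoter, chr6:142298175-142298474: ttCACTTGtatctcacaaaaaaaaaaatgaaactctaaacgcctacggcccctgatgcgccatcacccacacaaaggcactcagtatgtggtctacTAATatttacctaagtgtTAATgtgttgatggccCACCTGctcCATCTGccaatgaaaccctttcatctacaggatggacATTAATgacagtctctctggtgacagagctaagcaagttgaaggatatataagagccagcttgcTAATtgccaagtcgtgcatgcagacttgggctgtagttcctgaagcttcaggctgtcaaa
G6pc2 promoter, first start, chr2:69210823-69211122: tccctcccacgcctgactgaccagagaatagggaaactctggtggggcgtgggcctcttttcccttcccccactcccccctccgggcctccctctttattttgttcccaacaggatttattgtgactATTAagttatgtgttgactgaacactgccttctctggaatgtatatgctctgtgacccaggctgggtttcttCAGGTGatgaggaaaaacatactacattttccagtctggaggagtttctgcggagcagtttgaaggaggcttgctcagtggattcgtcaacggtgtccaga
G6pc2 promoter, second start, chr2:69219699-69219998: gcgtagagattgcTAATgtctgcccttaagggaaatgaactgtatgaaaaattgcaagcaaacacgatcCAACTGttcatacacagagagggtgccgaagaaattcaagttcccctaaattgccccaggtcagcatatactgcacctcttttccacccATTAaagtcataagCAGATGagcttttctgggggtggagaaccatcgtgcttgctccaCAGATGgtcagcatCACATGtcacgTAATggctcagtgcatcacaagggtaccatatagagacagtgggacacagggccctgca
Npy promoter, chr6:49822460-49822759: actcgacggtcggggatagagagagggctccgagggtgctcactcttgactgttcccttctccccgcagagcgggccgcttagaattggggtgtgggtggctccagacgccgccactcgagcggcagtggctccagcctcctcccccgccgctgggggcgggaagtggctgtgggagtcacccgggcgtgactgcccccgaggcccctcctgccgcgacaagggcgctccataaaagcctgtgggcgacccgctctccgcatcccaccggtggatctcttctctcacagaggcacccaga
The Ins1 window held 3 TAAT or ATTA matches and 4 E-boxes, and the Iapp window held 5 and 3. The upstream G6pc2 window held 1 of each, and the downstream one 3 and 4. The Npy window held 0 of either, as did that of Nnat, and the Slc2a2 window, like that of Nnat not printed, held 1 of each. Of 32851 RefSeq promoter windows of this length, 58.03% held TAAT or ATTA, 72.31% held CANNTG and 44.04% held both. At least 4 TAAT or ATTA matches were found in 11.64% of all windows and at least 4 E-boxes in 6.487%. Of 8 genes looked up, 6 had a window.

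The label fits markers that the rule did not use, read against mesenchyme cells for Mafa, G6pc2 and Npy. Iapp, which encodes the islet amyloid peptide released with insulin, had a UMI in all 117 Mettl3pKO and all 338 WT cells. This was counted without thinning and without a share in other cells beside it, so it does not by itself set beta cells apart. Summed over Iapp, Mafa, G6pc2 and Npy, the level in beta cells was 4.58 times that of alpha cells in Mettl3pKO and 4.98 times in WT. Alpha cells, chosen by limits given below, were thus not free of these markers as a set. After every cell was thinned to 8000 UMIs, which left out 8 WT cells, Mafa, the activator of the insulin genes, was seen in 89.7% of Mettl3pKO and 90.3% of WT beta cells. The same shares in mesenchyme cells of the same libraries, which should lack the gene, were 1.15% and 1.46%. G6pc2, a glucose-6-phosphatase subunit of islets, was seen in 90.6% of Mettl3pKO and 81.2% of WT beta cells, against 1.38% and 0.390% of mesenchyme cells. Npy, a neuropeptide of fetal beta cells, was seen in 43.6% of Mettl3pKO and 38.2% of WT beta cells, against 0.461% and 1.07% of mesenchyme cells. Iapp, Mafa and G6pc2 were thus present in most cells of both libraries, and Npy in fewer than 50%. Gcg reached 65.8% and 66.4% of the thinned beta cells, and 57.4% and 56.8% of the mesenchyme cells, so its presence in beta cells is not far above the free RNA of these libraries.

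The beta cells were deep. They held a median of 15149 UMIs and 4070 genes in Mettl3pKO and 13609.5 UMIs and 3946.5 genes in WT, and their lowest totals were 11526 and 6571 UMIs. The class summed to 1897268 Mettl3pKO and 4890967 WT UMIs. The median mitochondrial share was 7.62% in Mettl3pKO and 7.07% in WT beta cells. The deposited tables list deeper cells first and end in an incomplete line: the first 100 cells had a median of 37383.5 UMIs in Mettl3pKO and 33738.5 in WT, and the last 100 a median of 12025.5 and 6852.5. The tables may therefore hold only part of each library, and every share of cells is a share of the cells listed. Over all cells, the shallowest held 10719 UMIs in Mettl3pKO and 3803 in WT, so cells with at least 13000 UMIs were also compared. Cells with a Y-linked UMI and no Xist UMI were 67.5% of the Mettl3pKO and 46.7% of the WT beta cells, so the sexes were mixed unequally. Of 33 cell labels found in both libraries, 0 belonged to Mettl3pKO beta cells and 1 to a WT beta cell. Doublets were not called.

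Beta cells made up 3.23% (2.68% to 3.86%) of the Mettl3pKO cells and 5.29% (4.76% to 5.87%) of the WT cells, intervals being exact Clopper-Pearson. The ratio of shares was 0.610 (0.490 to 0.755). Among cells with at least 13000 UMIs the shares were 3.17% and 8.98%, with a ratio of 0.353 (0.274 to 0.453). Among cells with at most 10% mitochondrial UMIs the ratio was 0.927, and the rule kept 109 of 117 Mettl3pKO and 325 of 338 WT beta cells. The beta cell counts thus changed little, and the ratio moved through the number of other cells kept. Over all cells the median mitochondrial share was 9.41% in Mettl3pKO and 6.87% in WT. The alpha cells, chosen with Gcg at 200 per 10000 or more, insulin below 200, and the same limits on Sst, Ctrb1, Neurog3 and collagen but none on proliferation, were 3.75% of Mettl3pKO and 4.32% of WT cells. The insulin limit decided little in Mettl3pKO: the 3 cells just inside it held 287.5, 358.7 and 524.3 insulin UMIs per 10000, and the nearest outside it 147.4 and 110.4. In WT the neighbours of the limit were closer, at 200.7, 204.7 and 205.3 inside and 198.6 and 197.8 outside. Among cells that met the other limits, 7 Mettl3pKO and 38 WT cells lay between 20 and 200, so the WT library had more cells on both sides of the limit.

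Insulin-positive cells that met every limit but the one on proliferation were counted as cycling. They were 29 of 146 in Mettl3pKO, or 19.9% (13.7% to 27.3%), and 26 of 364 in WT, or 7.14% (4.72% to 10.3%). At 13000 UMIs or more the shares were 22.4% (15.4% to 30.7%) and 10.6% (6.81% to 15.4%). The median depth of these cycling cells was 19737 UMIs in Mettl3pKO and 23578.5 in WT, above that of the non-cycling cells, and the part of depth in these shares was not tested.

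The Mettl3pKO beta cells lay higher on the insulin scale. Insulin ran from 287.5 per 10000 through a median of 1698.8 to 3120.6 in Mettl3pKO, and from 200.7 through 1183.7 to 3179.3 in WT. The ranges overlapped, with nearly equal upper ends, and differed at the lower end, where the 5th percentile was 840 per 10000 in Mettl3pKO and 301 in WT. Insulin transcripts made 16.8% of all UMIs of the class in Mettl3pKO and 13.3% in WT. Ins1 had 75069 CPM (UMIs per 1000000 UMIs of the summed cells) in Mettl3pKO and 57100 in WT, and Ins2 had 93280 and 76165. The rule selected on these genes, so their levels, and the insulin bands made from them, are given as a description with no test. Free insulin RNA was small beside them, since Ins2 reached 80.2 and 125 CPM in mesenchyme cells.

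**Figure D1:**
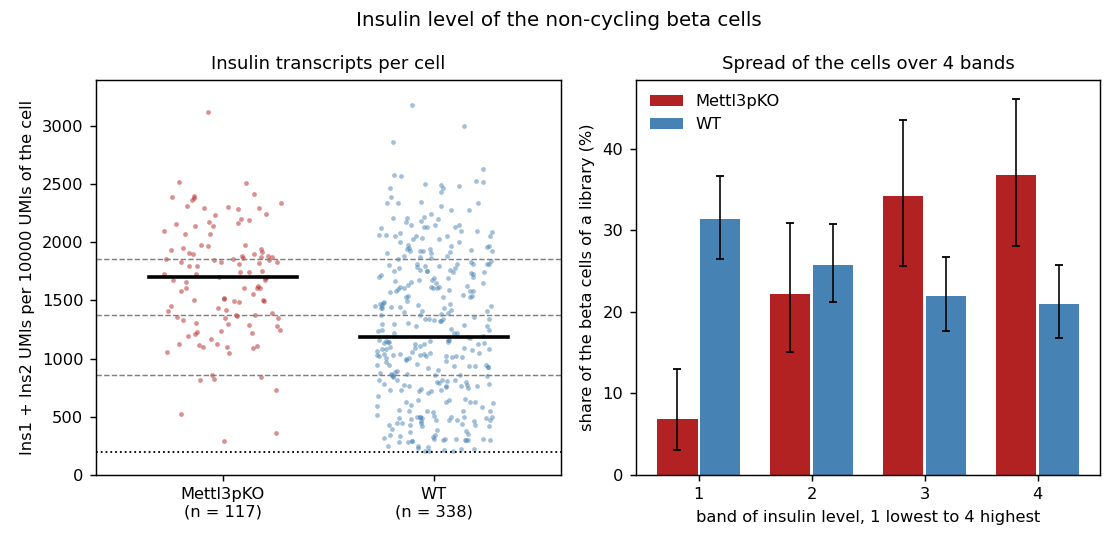
Insulin UMIs per 10000 UMIs of each beta cell (left; points are cells, black lines medians, the dotted line the limit of the rule, dashed lines the band limits) and the share of each library's beta cells in 4 bands of insulin level (right; bars with 95% Clopper-Pearson intervals). The lowest band holds 6.84% of Mettl3pKO and 31.4% of WT beta cells.

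The cells were divided into 4 bands at the quartiles of the insulin level over both libraries, at 855.6, 1375.1 and 1853.4 per 10000. From the lowest band to the highest, Mettl3pKO had 8, 26, 40 and 43 cells and WT had 106, 87, 74 and 71 cells. The lowest band thus held 6.84% (3.0% to 13%) of Mettl3pKO and 31.4% (26.4% to 36.6%) of WT beta cells. The highest band held 36.8% (28% to 46.2%) and 21% (16.8% to 25.7%). Among cells with at least 13000 UMIs, the lowest band held 7.22% and 17.4%, and the highest 41.2% and 30.3%, so that the order of the libraries was the same with a smaller gap. In WT the low-insulin cells were also the shallow ones, with a median of 11546 UMIs in the lowest band and 16496 in the highest; in Mettl3pKO these medians were 13532.5 and 15925.

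The balance of the insulin genes split the WT cells further. Ins1 gave a median of 44.8% of a cell's insulin UMIs in Mettl3pKO, with a range of 0.329% to 63.9%, and 42.7% in WT, with a range of 0.0682% to 100%. In most cells of both libraries the genes were thus near balance. Cells with less than 5% or more than 95% Ins1, in effect using a single insulin gene, were 1 of 117 in Mettl3pKO, or 0.855% (0.0216% to 4.67%), and 42 of 338 in WT, or 12.4% (9.10% to 16.4%). Of the 42 WT cells, 34 carried almost only Ins2 and 8 almost only Ins1. They sat low on the insulin scale: 34 of 106 cells in the lowest WT band, 8 of 87 in the next, and none of 74 and 71 in the upper bands. In Mettl3pKO the lowest band had 0 of 8 such cells, which allows a share of up to 36.9%, and the single cell lay in the second band. Most such cells were thus low-insulin cells, of which Mettl3pKO had few, and within the lowest band a difference between the libraries was not detectable with 8 Mettl3pKO cells. Ins1 and Ins2 are close paralogs, and how reads matching both were counted is not known from the labels or headers.

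**Figure D2:**
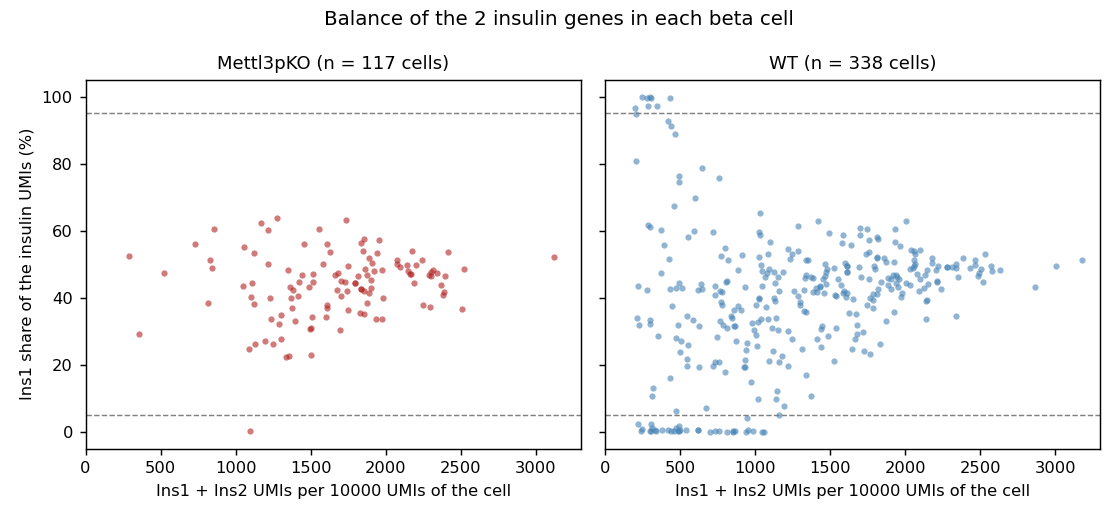
Ins1 share of a cell's insulin UMIs (y axis, %) against its insulin level per 10000 UMIs (x axis) for each beta cell in Mettl3pKO (left) and WT (right); dashed lines mark 5% and 95%. Cells beyond those lines number 1 in Mettl3pKO and 42 in WT, all with insulin levels below the upper bands.

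Other beta cell genes were compared between these WT cells and their neighbours in the lowest band. In levels without the genes of the rule, the 26 cells with less than 5% Ins1 had 17738 CPM of Iapp, against 17962 CPM in the 72 cells that used both genes. They had 967 CPM of Mafa, against 1159 CPM. Nkx6-1 stood at 1412 and 1373 CPM and Pdx1 at 317 and 297 CPM. The 8 cells with over 95% Ins1 had 395 CPM of Mafa and 342 CPM of Fev, a gene of endocrine precursors, against 149 CPM of Fev in the cells with both genes. The median depths were 10761.5, 10919 and 12048.5 UMIs for the Ins2, the Ins1 and the balanced cells. These groups were set after the values were seen and have no test.

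Mettl3 itself (chromosome 14, 52294841 to 52305128, minus strand, GRCm38) was thinly counted in the beta cells. It had 17 UMIs in Mettl3pKO and 71 in WT, or 8.96 CPM and 14.5 CPM, a ratio of 0.631 (0.341 to 1.06). The interval includes equal levels, so a loss was not detectable at this depth. In the thinned cells, Mettl3 was seen in 6.84% of Mettl3pKO and 11.5% of WT beta cells, and in 12% and 10.6% of mesenchyme cells, which do not descend from Pdx1+ progenitors. UMIs that fall outside the deleted exons would still be counted. Of the 8 measured m6A writer genes, 1 was at least 1.5-fold lower, which is Mettl3, and 0 were higher. Over all measured genes these shares were 9.96% and 4.55%, so the writer count is near that of genes in general. Mettl14, the partner of Mettl3, had a ratio of 0.717 (0.425 to 1.13) and Wtap, which anchors the complex, 0.995 (0.802 to 1.22). The 13 reader and eraser genes had 0 members past 1.5-fold, with a median log2 ratio of -0.16.

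Over the measured genes, most ratios between the libraries lay within 1.5-fold. Of 10912 genes with at least 20 UMIs over both libraries, 497 (4.55%) were at least 1.5-fold higher in Mettl3pKO and 1087 (9.96%) at least 1.5-fold lower, with a median log2 ratio of -0.09 over all genes. The lower side depends on scale: with every ratio centred on the median gene the numbers were 683 and 826, and with the genes of the rule taken out of the denominator 646 and 869. In alpha cells of the same libraries, 826 of 11573 genes (7.14%) were higher and 589 (5.09%) lower. The ratios below are read against these shares.

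The markers did not share a direction. Iapp had 25732 CPM in Mettl3pKO and 20820 CPM in WT, a ratio of 1.24 (1.22 to 1.25). Per 10000 UMIs, Iapp ran from 77.7 through a median of 239 to 504 in Mettl3pKO cells and from 4.16 through 199 to 554 in WT cells, so that the libraries overlapped nearly throughout. G6pc2 ran from 0 through 6.17 to 38.1 in Mettl3pKO cells and from 0 through 3.06 to 29.8 in WT cells. Its class level was 764 CPM in Mettl3pKO and 494 CPM in WT, a ratio of 1.55 (1.45 to 1.65), the only ratio past 1.5-fold among the 4 markers outside the rule. Alpha cells, which hold far less G6pc2, had a like ratio of 1.53. Mafa was lower, with medians of 8.74 and 11 per 10000, ranges of 0 to 39.8 and 0 to 50.2, and 999 CPM in Mettl3pKO against 1227 CPM in WT, a ratio of 0.814 (0.773 to 0.857). Npy had no UMI in 64 of 117 Mettl3pKO and 202 of 338 WT cells and reached 86.2 and 98.5 per 10000 in the highest cells. Its class ratio was 1.23 (1.16 to 1.31).

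**Figure D3:**
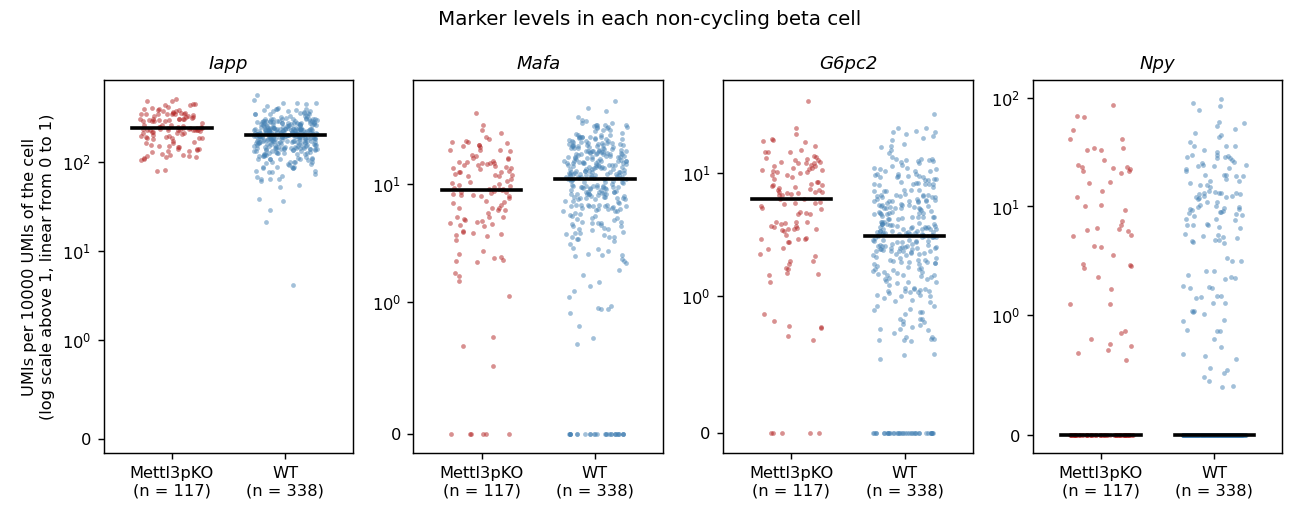
Levels of Iapp, Mafa, G6pc2 and Npy in each beta cell, as UMIs per 10000 UMIs of the cell (y axis, logarithmic above 1 and linear from 0 to 1), with Mettl3pKO left and WT right; points are cells and black lines medians. The median of G6pc2 is 6.17 in Mettl3pKO and 3.06 in WT, and the median of Npy is 0 in both.

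The 24 genes named next, 12 a side, were ranked by the bound of their interval nearest 1, among genes of at least 100 CPM in either library and without mitochondrial, ribosomal, globin, sex-linked and acinar genes; Iapp and G6pc2 are 2 of the higher 12. On the higher side, Lgi2, a secreted leucine-rich repeat protein, had 123 CPM in Mettl3pKO and 51.5 CPM in WT, a ratio of 2.39 (1.99 to 2.87). It was seen in 40.2% of Mettl3pKO and 19.1% of WT thinned beta cells, and its ratio in alpha cells was 1.07. Mesenchyme cells, at 78.1% and 77.5%, held Lgi2 more often than beta cells, and the part of their RNA in the beta cell ratio was not tested. H19, an imprinted long noncoding RNA, had 270 CPM in Mettl3pKO and 117 CPM in WT, a ratio of 2.30 (2.04 to 2.60). A single Mettl3pKO cell held 35.9% of its UMIs, and without the top cell of each library the ratio of H19 was 1.76. Mesenchyme cells carry H19 in 100% of thinned cells of both libraries, and the part of free RNA or of attached cells in the H19 ratio was not tested.

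Also on the higher side, Chga, the granule protein chromogranin A, had 5396 CPM in Mettl3pKO and 4077 CPM in WT, a ratio of 1.32 (1.29 to 1.36). Scg5, a chaperone of the prohormone convertase Pcsk2, had 254 CPM and 179.5 CPM, a ratio of 1.42 (1.26 to 1.58). Bace2, a protease of beta cells, had 163 CPM and 107 CPM, a ratio of 1.52 (1.32 to 1.75). Both Chga and Bace2 had higher ratios in alpha cells, at 1.6 and 4.82. Ccnd2, the D-type cyclin of beta cells, had 696 CPM in Mettl3pKO and 496 CPM in WT, a ratio of 1.41 (1.31 to 1.5), and 0.938 in alpha cells. Tmem167, 2610524H06Rik, Tnr and Tmem215 had ratios of 1.45, 1.40, 1.39 and 1.38.

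On the lower side, Nr4a1, an orphan nuclear receptor induced by stimulation, ran from 0 through a median of 0.794 to 20.2 per 10000 in Mettl3pKO cells and from 0 through 2.55 to 32.6 in WT cells. Its class level was 248 CPM in Mettl3pKO and 467 CPM in WT, a ratio of 0.531 (0.479 to 0.586). Maff, Atf3, Arc, Klf4 and Junb, had ratios of 0.574, 0.586, 0.597, 0.598 and 0.666. In alpha cells the ratios of Maff, Atf3, Arc, Klf4 and Junb were 0.475, 0.473, 0.555, 0.603 and 0.663, and that of Nr4a1 was 0.849. Of the 26 measured immediate early and dissociation genes, a list without Maff, Atf3 and Arc, 3 (Nr4a1, Klf4 and Junb) were at least 1.5-fold lower and 0 higher, beside 9.96% of all genes lower, and the median log2 ratio was -0.38 against -0.09 over all genes. Fos, the best known of them, had 1685 CPM in Mettl3pKO and 1739 CPM in WT, a ratio of 0.969 (0.930 to 1.01). Immediate early genes are known to respond to tissue digestion. With 1 library per genotype, genotype and preparation cannot be told apart.

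The other genes of the lower side were of several kinds. Rbp4, a retinol carrier made by several islet cell types, ran from 0 through 8.91 to 40.2 per 10000 in Mettl3pKO cells and from 0 through 15.3 to 136 in WT cells. It had 1081 CPM in Mettl3pKO and 1824 CPM in WT, a ratio of 0.593 (0.565 to 0.622), against 0.876 in alpha cells. Meg3, a maternally expressed noncoding RNA, had 1611 CPM and 2500 CPM, a ratio of 0.645 (0.619 to 0.671). Its ratio was 0.765 in alpha cells and 0.656 (0.642 to 0.670) in mesenchyme cells, so its lower level was not particular to beta cells. Mapt, the microtubule protein tau, had a ratio of 0.572 (0.482 to 0.673) in beta cells and 0.923 in alpha cells. Smarca2, an ATPase of chromatin remodelling complexes, had 0.613 (0.516 to 0.723) and 0.967. Zfp423 and AC149090.1 had ratios of 0.571 and 0.565 in beta cells.

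**Figure D4:**
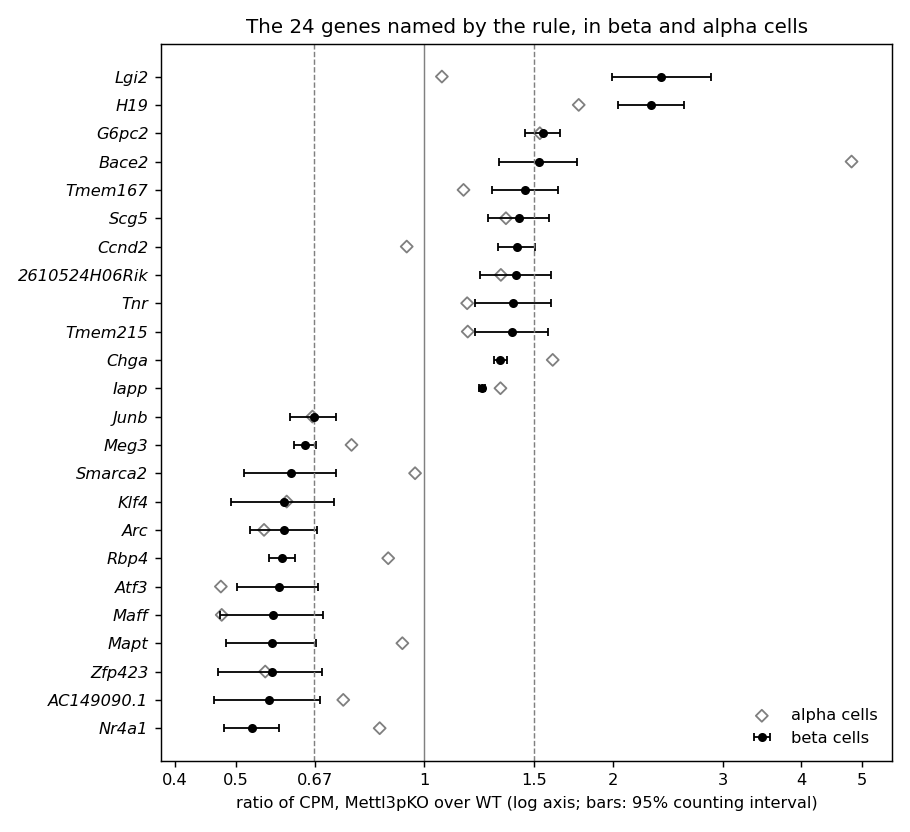
Ratio of CPM in Mettl3pKO over WT (x axis, logarithmic) for the 24 named genes (y axis), in beta cells (filled, with 95% counting intervals) and in alpha cells (open diamonds); dashed lines mark 1.5-fold. Bace2 has the highest alpha cell ratio of these genes, 4.82, and Lgi2 the highest beta cell ratio, 2.39.

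Of 20 measured beta cell transcription factors, 0 were at least 1.5-fold higher and 3 lower, beside 4.55% and 9.96% of all genes, and the median log2 ratio was -0.31 against -0.09 over all genes. The 3 were Pax4, a factor of endocrine precursors, at 6 UMIs in Mettl3pKO and 56 UMIs in WT (0.297, 0.0972 to 0.640), Mnx1 at 0.601 (0.454 to 0.777) and St18 at 0.666 (0.552 to 0.796). Nkx6-1, which keeps beta cell identity, had 806 CPM in Mettl3pKO and 1082 CPM in WT, a ratio of 0.746 (0.704 to 0.789). Isl1 had the same ratio, 0.746 (0.683 to 0.812), and Pdx1 and Neurod1 had 0.821 and 1.03. Along the insulin scale in WT the list stood lower in the cells with most insulin, with a median log2 ratio of -0.53 between the end bands. Mettl3pKO had more such cells, and the ratios given here are not weighted for this. Precursor genes had 1 of 19 measured members lower, Pax4 again, and 0 higher.

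Genes of glucose sensing and of insulin processing were near equal or somewhat higher. Of 21 measured genes of glucose sensing and secretion, 3 were higher, namely Casr (2.01, 1.12 to 3.51), G6pc2 and Ucn3 (1.51, 1.21 to 1.88), and Cacna1c was lower (0.531, 0.261 to 0.944). Over all genes, 4.55% were higher and 9.96% lower. Slc2a2, the glucose transporter, had 761 CPM in Mettl3pKO and 676 CPM in WT, a ratio of 1.13 (1.06 to 1.20). Slc30a8, which loads zinc into insulin granules, had 1.18 (1.12 to 1.25). None of the 12 granin and prohormone processing genes passed 1.5-fold, with a median log2 ratio of 0.10. Pcsk1 and Pcsk2, which cleave proinsulin, had ratios of 1.11 (1.04 to 1.18) and 1.07 (1.03 to 1.11). Of 25 exocytosis genes, 1 was higher (Rab3c, 1.75) and 2 lower (Rims3, 0.588, and Rab3b, 0.624), near the shares over all genes.

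Lists of maturity gave no single direction. Of 14 measured maturation genes, 4 were higher and 0 lower, beside 4.55% and 9.96% of all genes. The 4 higher genes were Prlr, the prolactin receptor, with 69.6 CPM in Mettl3pKO and 30.5 CPM in WT (2.28, 1.79 to 2.91), G6pc2, Ucn3 and Ndrg4, whose ratio of 1.59 had an interval that includes equal levels (0.883 to 2.75). Prlr had a UMI in 36 Mettl3pKO and 55 WT cells, and the top 5 cells held 52.3% and 34.2% of its UMIs. Without the top cell of each library the ratio of Prlr was 2.08. The summed level of the maturation list was lower in Mettl3pKO, at 20022 CPM against 23563 CPM, since Nnat, an imprinted proteolipid of the endoplasmic reticulum, made most of it. Nnat had 15095 CPM in Mettl3pKO and 19108 CPM in WT, a ratio of 0.790 (0.780 to 0.801). Of 13 genes of immature beta cells, 1 was lower (Tubb2b, 0.642) and 0 higher, beside the same shares of all genes. Dlk1, an imprinted gene of that list, had 2222 CPM and 3078 CPM, a ratio of 0.722 (0.698 to 0.747). Of 13 measured genes that mature beta cells keep silent, 3 were higher and 2 lower, again beside 4.55% and 9.96% of all genes.

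Stress pathways, like the measured genes in general, showed few members past 1.5-fold. Of 31 genes of the unfolded protein and integrated stress responses, 1 was higher and 2 lower, beside 4.55% and 9.96% of all genes. Their median log2 ratio was -0.05 against -0.09 over all genes. Nupr1, a stress-induced chromatin protein, had 53 UMIs in Mettl3pKO and 35 in WT (3.88, 2.50 to 6.16), and a single cell held 39.6% of the Mettl3pKO and 48.6% of the WT UMIs. Without those cells the ratio of Nupr1 was 4.56. The lower members were Atf3 and Ddit3, which had 0.592 (0.394 to 0.850). Hspa5, the main chaperone of the endoplasmic reticulum, had a ratio of 1.06 in beta cells. None of 18 p53 target genes passed 1.5-fold in either direction, and Cdkn1a, the cell cycle inhibitor, had 1.25. Mitochondrially encoded transcripts had 0 of 13 members past 1.5-fold, with a median log2 ratio of 0.13.

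Genes of DNA replication stood on the higher side more often than the background share of 4.55%. Of 18 measured S-phase genes, 7 were higher and 1 lower, with a median log2 ratio of 0.40. Those named here were thinly counted: Mcm5, a helicase subunit, had 32 UMIs in Mettl3pKO and 35 in WT (2.36, 1.41 to 3.92), and Hells had 15 and 18 (2.16, 1.01 to 4.51). Slbp, which binds histone mRNA, was the lower one at 0.601 (0.391 to 0.877). The proliferation limit of the rule removes mitotic cells more than cells in S phase. Of the cells kept, 63 of 117 in Mettl3pKO and 252 of 338 in WT held no UMI of the proliferation genes. From 1 to 2 per 10000 of these genes were held by 15 of 117 Mettl3pKO and 31 of 338 WT cells. A larger share of the Mettl3pKO cells thus held some UMI of the proliferation genes. These counts were not thinned, and the Mettl3pKO cells were deeper, with a median of 15149 UMIs against 13609.5 in WT. The rule selected on these genes, so the counts are a description, and the part of depth in them was not tested. In alpha cells, which carry no such limit, 19 of 24 S-phase genes were higher. Of 11 cyclins and cell cycle inhibitors, 0 passed 1.5-fold in beta cells.

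Imprinted genes went both ways, with 2 of 19 higher (H19, and Mest at 1.96, or 1.20 without its top cells) and 2 lower (Meg3, and Peg10 at 0.376). Over all genes, 4.55% were higher and 9.96% lower. Peg10 had 58 UMIs in Mettl3pKO and 401 in WT, of which the top 5 cells held 70.7% and 71.3%. Of 15 genes of insulin and insulin-like growth factor signalling, 0 were higher and 1 was lower, Irs2, the adaptor of the insulin receptor, with 130 CPM in Mettl3pKO and 199.6 CPM in WT (0.653, 0.565 to 0.751). Of 11 Notch pathway genes, 1 was higher and 1 lower. Of 99 ribosomal protein genes, 0 were higher and 1 was lower.

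Hormones of other islet cells were unevenly spread. Ghrl, which encodes ghrelin, had 3 UMIs in 117 Mettl3pKO cells and 213 UMIs in 338 WT cells, or 1.58 CPM and 43.5 CPM, a ratio of 0.0423 (0.00743 to 0.108). The WT UMIs sat in few cells: the top cell held 46.5% and the top 5 cells 82.6% of them, and 41 cells had any. Without the top cell of each library, Ghrl had 1.07 CPM in Mettl3pKO and 23.4 CPM in WT. Thinned mesenchyme cells showed Ghrl in 3.46% of Mettl3pKO and 4.39% of WT cells, against 0.855% (0.0216% to 4.67%) of Mettl3pKO and 6.97% (4.47% to 10.3%) of WT beta cells, so in Mettl3pKO the interval includes the mesenchyme share. Pyy, peptide YY, ran from 0 through a median of 6.16 to 210 per 10000 in Mettl3pKO cells and from 0 through 5.02 to 589 in WT cells, with a ratio of 1.05 (1.01 to 1.09), or 0.986 without the top cell of each library. Sst, which the rule limits, was seen in 9.40% of Mettl3pKO and 23.9% of WT thinned beta cells, against 5.07% and 15.9% of mesenchyme cells.

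Markers of other cells were present at low summed levels. The 22 acinar genes summed to a median of 23.0 per 10000 in Mettl3pKO beta cells, ranging from 12.9 to 354, and 19.5 in WT beta cells, ranging from 7.0 to 248. Pnlip and Ctrc were at 0 in both libraries and Try4 in Mettl3pKO. Of 17 measured acinar genes, 8 were higher and 3 lower, beside 4.55% and 9.96% of all genes. Serpina6 had 421 UMIs in Mettl3pKO and 255 in WT, a ratio of 4.25 (3.63 to 4.99). A single cell held 36.6% of the Mettl3pKO and 66.7% of the WT UMIs of Serpina6, and without those cells the ratio was 8.13. Serpina6 was seen in 70.1% of Mettl3pKO and 11.8% of WT thinned beta cells and in 57.6% and 12.1% of mesenchyme cells, so its share in the beta cells of each library was not far from that in the mesenchyme cells. Cpb1 went the other way in beta cells, at 5.98% and 24.2%, and also in mesenchyme cells, at 6.91% and 19.2%. The erythroid genes summed to a median of 4.17 per 10000 in Mettl3pKO and 5.10 in WT. Their sums ranged from 0.866 to 1195 and from 0 to 1790, with 8 cells above 100 in each library. In beta cells 5 of 6 measured erythroid genes were higher and 1 lower, beside the same shares of all genes. In alpha cells of the same libraries 0 were higher and 7 of 7 lower. Duct and trunk genes had 5 of 13 members lower and 0 higher, beside 9.96% and 4.55% of all genes, with sums of 1.61 to 31.8 in Mettl3pKO and 2.13 to 64.0 in WT. Spp1 led them with 15 and 225 UMIs, and the top 5 WT cells held 65.3% of its WT UMIs. Endothelial and glial sums reached at most 0.849 and 0.868 per 10000 in Mettl3pKO and 1.88 and 3.22 in WT, with Kdr, Tek, Cldn5, Foxd3 and Fabp7 among the genes at 0 in both. Immune sums reached 2.21 and 3.07, with C1qb at 0 in both. Mesenchyme sums, which include the collagens the rule limits, reached 27.5 and 19.5, with Nkx2-5, Barx1 and Tbx5 at 0 in both. The part of these cells in the ratios above was not tested.

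Levels were also followed along the insulin scale, in CPM without the genes of the rule. In WT, 736 of 8991 measured genes (8.19%) were at least 1.5-fold higher in the highest band than in the lowest, and 1797 (20%) lower. From the lowest band to the highest, G6pc2 had 260, 545, 1012 and 1174 CPM in Mettl3pKO and 237, 396, 645 and 1147 CPM in WT. Npy had 26.9, 1012, 1047 and 1226 CPM in Mettl3pKO and 132, 808, 1087 and 1389 CPM in WT. Both genes were thus higher in each higher band of both libraries, and the highest WT band exceeded the lowest 4.84-fold (4.25 to 5.54) for G6pc2 and 10.5-fold (8.92 to 12.5) for Npy. The lowest Mettl3pKO band held 3 Npy UMIs. Slc2a2 had 421, 928, 948 and 974 CPM in Mettl3pKO and 499, 773, 923 and 1013 CPM in WT. Ccnd2 had 421, 452, 941 and 1043 CPM in Mettl3pKO and 271, 358, 781 and 1009 CPM in WT. Band by band, the ratio of G6pc2 between the libraries was 1.11, 1.38, 1.57 and 1.02, and that of Ccnd2 1.56, 1.27, 1.20 and 1.03, so both genes were nearest to equal in the highest band.

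Mafa did not follow the insulin scale. It had 716, 1672, 1243 and 988 CPM in Mettl3pKO and 1057, 1656, 1623 and 1383 CPM in WT, with the peak in the second band of both. Among the 19 beta cell transcription factors measured along the scale in WT, 8 were lower in the highest band and 0 higher. Isl1 had 762.5 CPM in the lowest and 349 CPM in the highest WT band, and Pax4 29.5 and 4.39 CPM. Of 12 maturation genes, 7 were higher and 0 lower in the highest WT band, and of 19 precursor genes 1 was higher and 9 lower. Of 25 immediate early genes, 12 were lower and 0 higher. Nr4a1 had 618, 389, 221 and 259 CPM in Mettl3pKO and 816, 557, 420 and 279 CPM in WT. The ratios of Nr4a1 by band from the second on were 0.700, 0.528 and 0.930, so the genotypes were nearest in the cells with most insulin.

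For Pyy, Nnat, Dlk1 and Meg3 the libraries were farthest apart in the highest band. Pyy had 2927, 2566, 2557 and 2144 CPM in Mettl3pKO and 4534, 1890, 1367 and 449 CPM in WT, so the highest WT band was far below the lowest and the Mettl3pKO bands lay close together, and the ratio in the highest band was 4.77 (4.27 to 5.36). The top cell held 14.9% of the Mettl3pKO and 8.04% of the WT Pyy UMIs of the whole class. The top Mettl3pKO cell, with 572 Pyy UMIs or 210 per 10000, lay in the highest band and held a larger share of that band. The Pyy level and ratio of the highest band, and the closeness of the Mettl3pKO bands, therefore lean on a single cell. The ratio without that cell was not computed. Nnat had 11332, 23620, 19625 and 14964 CPM in Mettl3pKO and 14989, 23005, 26675 and 25391 CPM in WT, with ratios of 0.756, 1.03, 0.736 and 0.589. The ratios of Dlk1 were 1.03, 0.864, 0.636 and 0.606, and those of Meg3 0.939, 0.795, 0.678 and 0.574. Rbp4 had ratios of 0.640, 0.841, 0.574 and 0.635, lowest in the third band. The lowest Mettl3pKO band rests on 8 cells.

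**Figure D5:**
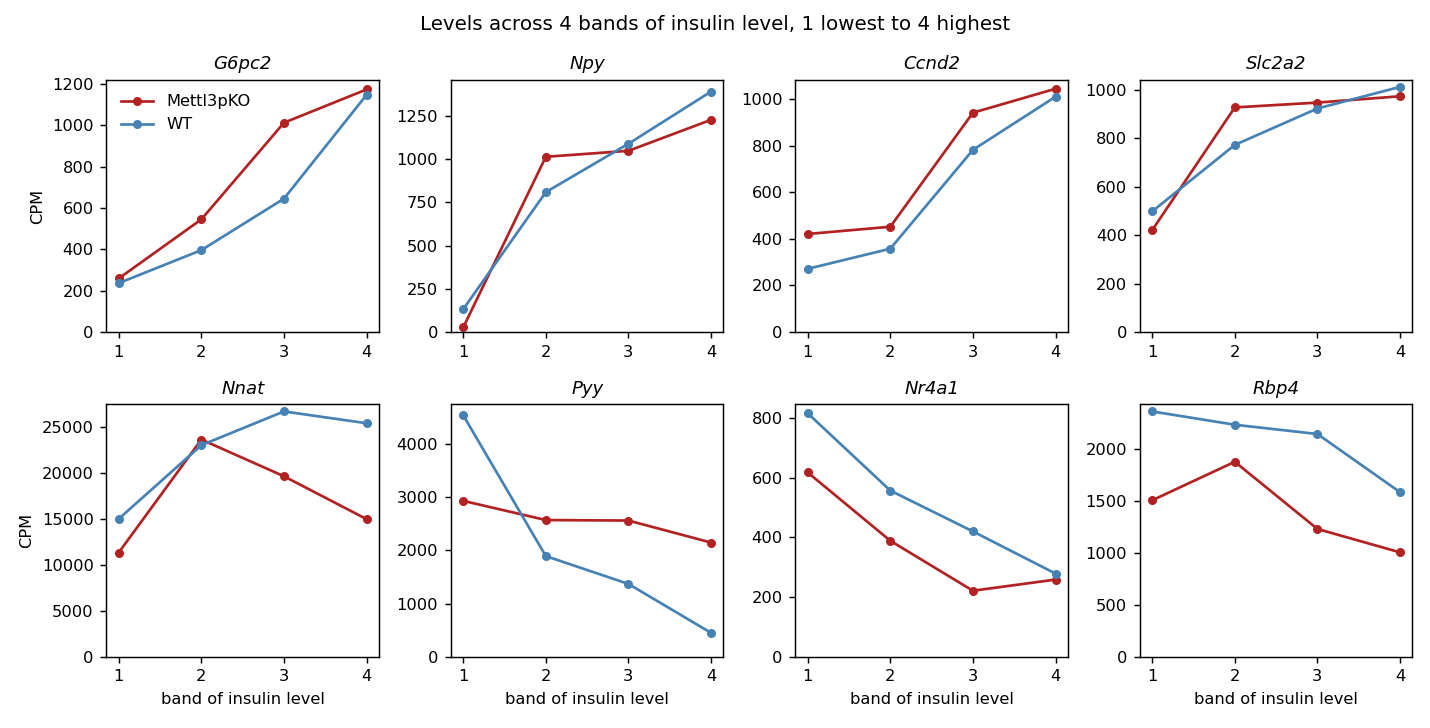
CPM, without the genes of the rule, of 8 genes (y axes, from 0) across 4 bands of insulin level (x axes, low to high), in Mettl3pKO (red) and WT (blue) beta cells; each point is the summed cells of a band, 8 to 43 in Mettl3pKO and 71 to 106 in WT. In the highest band Pyy stands at 2144 CPM in Mettl3pKO and 449 CPM in WT, and Nnat at 14964 and 25391 CPM. The Mettl3pKO level of Pyy in that band leans on a single cell.

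The unequal spread over bands bears on the class ratios. With the WT cells weighted to the Mettl3pKO share of UMIs in each band, an alternative added after the data were seen, 723 genes were higher and 787 lower, of which 424 and 715 were among those counted above. The ratio of Npy was then 0.963 in place of 1.23, so its direction did not hold. G6pc2 then had 1.23, below 1.5-fold, Ccnd2 had 1.13 and Iapp 1.15. On the lower side, Nr4a1 had 0.699, Atf3 0.809, Rbp4 0.658 and Meg3 0.685. H19 and Mafa, at 2.78 and 0.798, stood no closer to 1 than before.

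Against alpha cells of the same library, the beta cells were described by the genes with the largest differences. In Mettl3pKO, 1044 of 10683 genes (9.77%) were at least 1.5-fold higher in beta than in alpha cells and 4227 (39.6%) lower. In WT the numbers were 1257 of 11898 (10.6%) and 3923 (33%). The excess on the lower side depends on scale: the median log2 ratio of all genes was -0.38 in Mettl3pKO and -0.31 in WT, and centring WT on the median gene gave 2179 higher and 2346 lower. The cells were chosen for insulin and against glucagon, so these values describe them. Kcnk9, a potassium channel gene, had 353 UMIs in Mettl3pKO and 1321 UMIs in WT beta cells and 0 in alpha cells. With 3 UMIs per library as the limit for 0, it was at least 135-fold higher in Mettl3pKO and at least 356-fold higher in WT beta cells.

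Among the genes highest over alpha cells in WT were Mafa (290-fold in Mettl3pKO and 571-fold in WT), Sytl4, a granule-docking protein (158.5-fold and 364-fold), and Nnat (309-fold and 354-fold). Some of these folds rest on few alpha cell UMIs. Mafa had 7 in Mettl3pKO and 8 in WT alpha cells, and its intervals, 151 to 775 and 308 to 1405, overlap. Slc2a2 was 175-fold and 184-fold higher, and P2ry1, a receptor for extracellular nucleotides, 164-fold and 205-fold. Adra2a, the adrenergic receptor that restrains insulin release, was 77.2-fold and 185-fold higher, and Prss53 99.5-fold and 103-fold. Npy was 49.9-fold higher in Mettl3pKO and 290-fold higher in WT, as Mettl3pKO alpha cells had 17.0 CPM of Npy and WT alpha cells 2.28 CPM. Pdx1 and Nkx6-1 were 4.91-fold and 5.39-fold higher in Mettl3pKO and 8.40-fold and 6.75-fold higher in WT, whereas Neurod1 and Pax6 had ratios of 1.24 and 0.956 in Mettl3pKO and 1.00 and 0.972 in WT. Pcsk1, which beta cells use to process proinsulin, was 30.2-fold higher in Mettl3pKO and 13.6-fold higher in WT.

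On the alpha side, Irx2 and Pou3f4 had 4.74 CPM each in Mettl3pKO beta cells, and 369 CPM and 126 CPM in the alpha cells. Peg10, a retrotransposon-derived gene, had 30.6 CPM in beta and 3010 CPM in alpha cells of Mettl3pKO, and 82.0 CPM and 3776 CPM in WT. Of 11 alpha cell genes, 10 were lower in the beta cells of each library and 0 were higher. Of 26 exocytosis genes, 4 were higher and 5 lower in Mettl3pKO beta cells, and 6 higher and 5 lower in WT beta cells. Isl1, shared by both types, was lower in beta cells, at ratios of 0.333 in Mettl3pKO and 0.399 in WT. Of 31 genes of the unfolded protein and integrated stress responses, 18 in Mettl3pKO and 21 in WT were higher in beta cells, with median log2 ratios of 1.11 and 1.06. S-phase genes were lower in beta cells in 22 of 24 cases in Mettl3pKO and 21 of 24 in WT, beside a proliferation limit that only the beta cells carry.

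Against cycling insulin-positive cells, which differ by the proliferation limit alone, the non-cycling cells had more of several regulators. In Mettl3pKO, 1756 of 8968 genes (19.6%) were higher and 1485 (16.6%) lower in non-cycling cells, and in WT 2576 of 10700 (24.1%) were higher and 1563 (14.6%) lower. Centring WT on the median gene gave 1987 and 1966. Mafa was 1.75-fold (1.56 to 1.98) higher in non-cycling cells of Mettl3pKO and 1.61-fold (1.46 to 1.79) higher in WT. Nkx6-1 was 1.49-fold higher in Mettl3pKO and 1.87-fold higher in WT. Of the beta cell transcription factors, 5 of 18 in Mettl3pKO and 14 of 20 in WT were at least 1.5-fold higher, and 0 were lower in either. Kdm5b, Arc, Pdcd4, Atf3, Dbn1, Nr4a1, Btg2, Errfi1 and Dusp5 were among the leading genes in WT, from 4.43-fold for Arc to 2.69-fold for Dusp5. Nr4a1 was 2.87-fold higher in Mettl3pKO and 2.89-fold higher in WT. Iapp was lower in non-cycling cells, at ratios of 0.827 and 0.846, and so was Npy, at 0.378 and 0.876. S-phase genes outside the rule, 23 of 24 in Mettl3pKO and 24 of 24 in WT, were lower in the non-cycling cells. The cycling groups hold 29 and 26 cells, and their depth was higher.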

How the data were processed

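Single-cell UMI counts were taken as deposited by the authors, 1 table per library with cells in lines and genes in columns. Per the file headers, the counts were made with the BD WTA Rhapsody Analysis Pipeline 1.8 on GENCODE M21 annotation; the submitters' processing notes name mm10 and Seurat. The last, incomplete cell of each table was left out, and 22023 genes present in both tables were used. Cells were grouped by the rule given with the results. UMIs of the cells of a class were summed per library and divided by their total (CPM). Ratios carry 0.5 added UMIs and an exact conditional binomial 95% interval, and shares a Clopper-Pearson interval; all cover counting error only. A gene counted as measured had at least 20 UMIs over both groups, and the genes of the rule were left out of gene counts. Shares of cells with a UMI were taken after thinning each cell to 8000 UMIs, leaving out shallower cells. The named genes were Mettl3, the markers, 12 genes a side with at least 100 CPM and 50 UMIs, ranked by the interval bound nearest 1 without mitochondrial, ribosomal, globin, sex-linked and acinar genes, 10 a side for the other cell classes, and members of the lists farthest from 1; other genes were chosen after their values were seen. The members and lists were chosen with earlier results of these data known. Some genes that the naming rule or the lists hold are not reported here. Scripts were tested on simulated data. Python 3.11.15, numpy 2.4.6, scipy 1.17.1, pandas 2.3.3 and matplotlib 3.10.9 were used.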

Additional observations from a re-analysis of the deposited data

How the results depend on the processing

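The share of beta cells in Mettl3pKO over WT, 0.610, was 0.353 among cells with at least 13000 UMIs, 0.927 with at most 10% mitochondrial UMIs and 0.44 with no proliferation UMI allowed. The genes at least 1.5-fold higher and lower in Mettl3pKO, 497 and 1087, numbered 791 and 1721 in cells with Xist and no Y-linked UMI (20 Mettl3pKO and 119 WT cells), 214 and 644 with at least 50 UMIs required, and 129 and 345 at 2-fold. With no proliferation UMI allowed, 215 of 541 higher and 593 of 1163 lower genes were shared with the first count. For beta over alpha cells in WT, centring gave 2179 higher and 2346 lower genes and a 2-fold limit 656 and 2007. For beta over cycling cells in WT, a 2-fold limit gave 1195 higher and 822 lower, and 50 UMIs gave 919 lower. Fewer genes pass a stricter limit by construction, and the mitochondrial limit moved the share of beta cells through the other cells. For the remaining settings the cause was not tested. The 24 named genes kept their direction in every setting tried except Ccnd2 in cells with Xist and no Y-linked UMI. No paired analysis was possible because each genotype has 1 library, and no library could be left out for the same reason. Depth limits genes of few UMIs, Mettl3 among them, and the lowest Mettl3pKO insulin band.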

Other observations

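Among the 106 WT cells of the lowest insulin band, transcripts typical of other islet types gathered in single cells. Of the 102 Ghrl UMIs in the 26 cells with less than 5% Ins1, 99 lay in 1 cell. Of the 8 cells with more than 95% Ins1, 1 held all 134 Peg10 UMIs of that group, a gene that stood far higher in alpha than in beta cells. Npy was seen in 3 of the 26 cells with almost only Ins2, in 1 of the 8 with almost only Ins1 and in 18 of the 72 with both genes. These groups were set after the values were seen.

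Cox6a2, a subunit of cytochrome c oxidase, had 8.95, 21.1, 28.8 and 83.3 CPM from the lowest to the highest insulin band in Mettl3pKO and 1.64, 14.4, 48.3 and 102 CPM in WT. Cd24a, a surface protein, had 188, 96.4, 86.3 and 43.4 CPM in Mettl3pKO and 181, 93.7, 93.6 and 30.7 CPM in WT. Both genes were chosen after their values were seen.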
